A study of Mus musculus with 10 samples.

Results

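The 40 genes described here encode proteins of mitosis and the kinetochore, and they were found by symbol in both log2 RPKM tables of a mouse prostate organoid study. The tables held 24043 and 24016 usable gene rows, and all 40 symbols were present in each. RPKM is a read level scaled to transcript length and to the size of the library. Organoids are small epithelial structures grown in culture from tissue cells. These came from the dorsal-lateral prostate lobe of C57BL/6 mice at 8 weeks and were grown in medium with 10 nM R1881, a synthetic androgen. Every group, controls included, carried cMYC overexpression, floxed EZH2 alleles and an inducible PSA-CreERT2. In the chemical experiment, 3 libraries received the solvent DMSO and 3 received 1 µM DZNep, which the labels describe as inhibiting EZH2. The genetic experiment had 2 libraries that received the solvent EtOH and 2 received 1 µM Tamoxifen, which switches on CreERT2 so that floxed EZH2 can be excised. RNA was taken 3 days after treatment, and the comparisons asked how gene expression changed with each treatment. Both were meant to reduce EZH2 activity, which was not measured here. The PSA promoter limits Cre to cells in which it is active, so excision is restricted to such cells. Whether replicates come from different cultures or mice is not stated in the labels, so p-values here reflect only how far these libraries scatter, and that scatter can be technical.

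Cells make most mitotic proteins in one burst late in the cell cycle and destroy many of them at the exit from mitosis. CDK1 with cyclin B drives entry, the kinetochore couples each chromosome to spindle microtubules, the spindle checkpoint delays anaphase until all are attached, and the anaphase-promoting complex then releases the cell into division. The mRNA levels of these genes are therefore widely read as a sign of how many cells divide. Their promoters are known for the cell cycle genes homology region (CHR), which binds the MuvB complex with MYBL2 and FOXM1, and for CCAAT boxes, which bind NF-Y.

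RefSeq promoter windows (GRCm38.p6, 250 bases before to 50 after the start) were at hand for 32 of the 40 genes. The CHR was searched as TTTGAA or TTCGAA and the CCAAT box as CCAAT, each on both strands, so that TTCAAA and ATTGG also count. Matches may overlap, as in the UBE2C run CCAATTGG, which counts as 2 CCAAT matches on opposite strands. A few windows, written 5′ to 3′ on the gene's strand with matches in capitals, show how these promoters are built: TOP2A (chr11:99024140-99024439, minus strand), UBE2C (chr2:164769679-164769978, plus strand), CDC20 (chr4:118437294-118437593, minus strand) and KIF23 (chr9:61946750-61947049, minus strand), which were lower with DZNep, and MKI67 (chr7:135716330-135716629, minus strand), which was higher.
TOP2A: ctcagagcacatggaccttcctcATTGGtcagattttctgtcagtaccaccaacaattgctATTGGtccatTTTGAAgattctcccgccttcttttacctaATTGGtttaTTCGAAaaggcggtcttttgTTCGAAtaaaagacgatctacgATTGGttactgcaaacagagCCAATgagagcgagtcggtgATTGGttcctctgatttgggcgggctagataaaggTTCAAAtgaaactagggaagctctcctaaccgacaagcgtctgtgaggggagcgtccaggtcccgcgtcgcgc
UBE2C: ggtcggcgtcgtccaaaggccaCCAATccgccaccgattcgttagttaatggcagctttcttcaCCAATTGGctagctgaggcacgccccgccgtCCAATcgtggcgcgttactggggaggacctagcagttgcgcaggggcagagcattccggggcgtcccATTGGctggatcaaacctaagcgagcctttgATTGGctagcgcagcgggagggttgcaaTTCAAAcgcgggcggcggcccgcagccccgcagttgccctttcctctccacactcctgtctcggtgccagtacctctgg
CDC20: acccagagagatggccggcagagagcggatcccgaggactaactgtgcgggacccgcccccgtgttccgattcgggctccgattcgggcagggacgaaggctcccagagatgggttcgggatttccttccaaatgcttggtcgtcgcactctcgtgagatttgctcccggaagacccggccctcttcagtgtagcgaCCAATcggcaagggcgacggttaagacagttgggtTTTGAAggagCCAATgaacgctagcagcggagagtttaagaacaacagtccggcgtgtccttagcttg
KIF23: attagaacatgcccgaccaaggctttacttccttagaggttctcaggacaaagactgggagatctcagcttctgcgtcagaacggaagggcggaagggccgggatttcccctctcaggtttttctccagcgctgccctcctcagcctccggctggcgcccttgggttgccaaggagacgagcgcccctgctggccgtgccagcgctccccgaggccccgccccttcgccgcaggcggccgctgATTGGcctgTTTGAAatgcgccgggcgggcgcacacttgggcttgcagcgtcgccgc
MKI67: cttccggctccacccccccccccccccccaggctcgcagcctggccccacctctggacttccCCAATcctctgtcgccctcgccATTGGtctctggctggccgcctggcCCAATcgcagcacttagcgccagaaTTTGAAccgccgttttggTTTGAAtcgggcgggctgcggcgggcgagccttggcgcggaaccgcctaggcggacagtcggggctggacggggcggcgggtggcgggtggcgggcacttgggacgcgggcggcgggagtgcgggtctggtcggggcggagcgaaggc
TOP2A held 4 CHR and 6 CCAAT matches, and UBE2C held 1 CHR and 6 CCAAT matches. In CDC20 a CHR began 18 bases before the start, between a pair of CCAAT matches. The CHR of KIF23 began 2 bases after the start. MKI67 had 2 CHR matches, at 116 and 98 bases before the start, so neither was close to it. Over the 32 windows, 25 (78.1%) held a CHR anywhere. This compares with 19.4% of 27025 genes with a window and 13.5% of the 8374 that were also tested in the chemical experiment. A CHR within 50 bases of the start was present in 22 (68.8%), against 5.49% and 3.499% of these genes. A CCAAT match was present in 25 (78.1%), against 37.9% and 39.3%. A CHR near the start together with a CCAAT match was present in 20 (62.5%), against 2.39% and 1.89%. The near-start distance was chosen after the tables had been seen. Neither motif lay anywhere in the windows of BIRC5, NUF2, NUSAP1 and TACC3, and the CENPE window held 1 CCAAT match and no CHR.

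**Figure D1:**
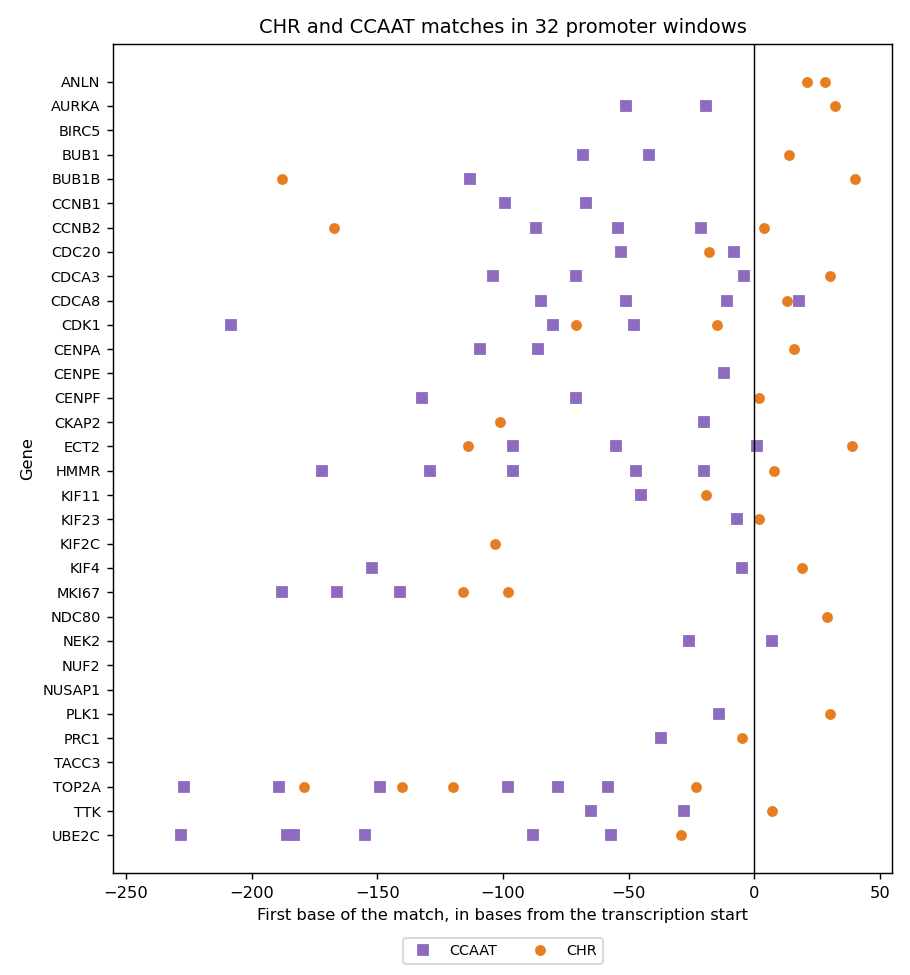
Position of CHR (circles) and CCAAT (squares) matches in the promoter windows of the 32 genes, in bases from the transcription start (vertical line). CHR matches gather around the start, within 50 bases of it in 22 genes, and CCAAT matches lie mostly before it.

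With DZNep, more of the mitotic genes were lower than higher, by modest amounts. Of the 40 genes, all of which passed the expression filter, 15 were lower, MKI67 alone was higher and 24 did not pass the test (limma on log2(RPKM + 1), Benjamini-Hochberg adjusted p under 0.05 over all genes). Over all 11143 genes tested, 11.1% were lower and 16.6% were higher. The change was negative in 37 of the 40, against 5227 of all 11143 genes tested. Its median over the 40 was -0.18 on the log2 scale, against 0.01 over all genes tested. The range ran from -0.41 for TOP2A to 0.18 for MKI67. All 3 DZNep libraries lay below all 3 DMSO libraries in 16 genes, the 15 called and TTK, and above them in MKI67, while the same separation held for 19.4% of all genes tested downward and 26.1% upward. At an unadjusted p under 0.05 the counts were 18 lower and 1 higher. Here and below, no share of all genes was computed at the unadjusted threshold, so those counts have no background to be read against. In bulk RNA, fewer dividing cells and less transcript per dividing cell cannot be told apart. The number of lower genes fell to 9 without DZNep 1, 8 without DZNep 2 and 7 without DMSO 2.

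Libraries of the same group differed in these genes as a block. DMSO 1 was the highest of its group in 38 of the 40 genes and DMSO 3 the lowest in 39, whereas over all genes tested these shares were 44.3% and 45.4%. Within the DZNep group, DZNep 3 was highest in 35 and DZNep 1 lowest in 34, against 37.7% and 36.3% of all genes. EtOH 2 exceeded EtOH 1 in 37, and Tamoxifen 2 exceeded Tamoxifen 1 in all 40, where 59.0% and 54.7% of all genes did so. The mean log2 level of the 40 genes was 4.90, 4.79 and 4.68 in the DMSO libraries and 4.52, 4.59 and 4.70 in the DZNep libraries. DZNep 3 therefore lay just above DMSO 3, and the groups overlapped on this summary. In the genetic experiment the mean was 4.77 and 4.91 with EtOH and 4.75 and 4.92 with Tamoxifen. The spread from lowest to highest library within a group was 0.141 to 0.218 for the 40 genes and 0.00378 to 0.0360 for the mean of all genes tested. What sets this shared spread was not tested.

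**Figure D2:**
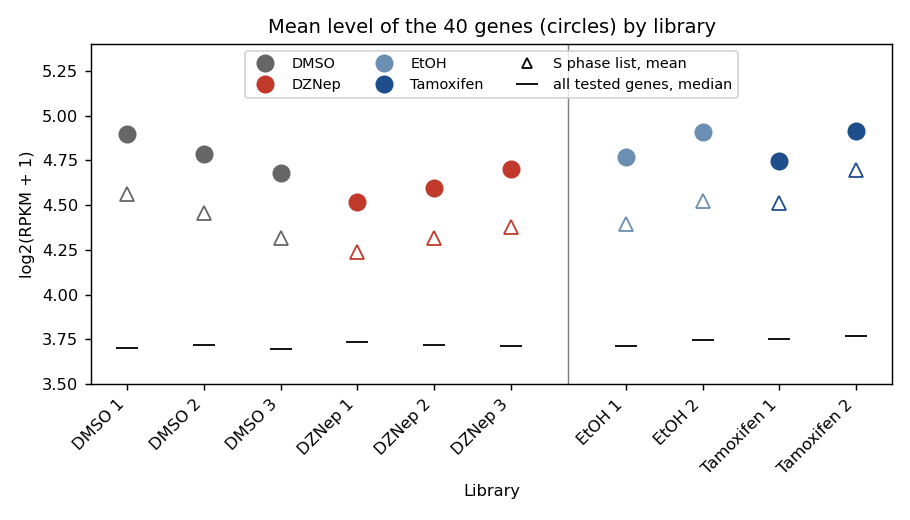
Mean log2(RPKM + 1) of the 40 genes (circles) and of the S phase list (triangles) in each library, with the median of all tested genes (bars). The 40 genes range from 4.52 to 4.92 across libraries, and DZNep 3 lies slightly above DMSO 3.

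**Figure D3:**
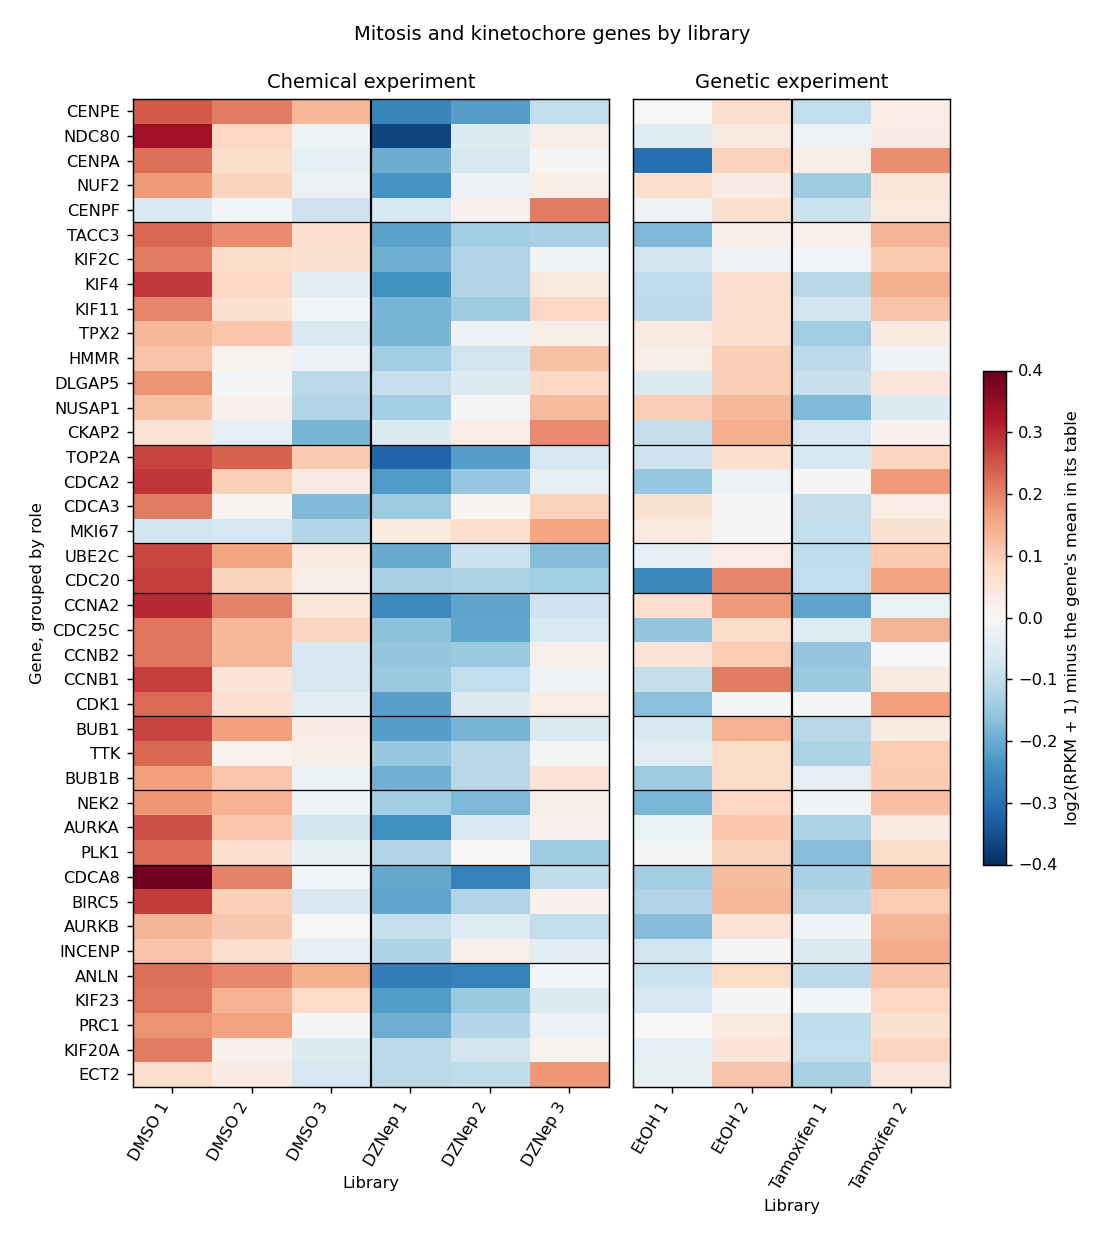
Level of each of the 40 genes in each library as log2(RPKM + 1) less the gene's mean in its table, grouped by role, red above and blue below the mean. DMSO 1 is the darkest red column and DZNep 1 the darkest blue, and MKI67 is blue in the DMSO and red in the DZNep libraries. EtOH 2 and Tamoxifen 2 are both mostly red.

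Entry into mitosis is driven by CDK1 and its cyclins, and by CDC25C, the phosphatase that removes inhibitory phosphates from CDK1. Among these 5 genes, CCNA2 and CDC25C fell with DZNep and CCNB1, CCNB2 and CDK1 did not pass the test. CCNA2, cyclin A2, stood at 66.5, 61.9 and 55.6 RPKM in the DMSO libraries and at 44.9, 46.3 and 50.8 RPKM in the DZNep libraries. Those groups did not overlap, and its mean fell by 22.8% (log2 change -0.37, SE 0.0761, limma adjusted p = 0.0115). For CDC25C the DMSO libraries gave 11.2, 10.5 and 10.1 RPKM and the DZNep libraries 8.37, 8.07 and 9.05 RPKM. Again no DZNep library reached the lowest DMSO library, and the change was -0.29 (SE 0.0584, limma adjusted p = 0.0104). CCNB1, cyclin B1, had 53.1, 45.3 and 41.6 RPKM with DMSO and 39.3, 40.8 and 43.2 RPKM with DZNep. Its groups overlapped because DZNep 3 lay above DMSO 3 (change -0.17, limma adjusted p = 0.171). CCNB2 and CDK1 had like changes of -0.19 and -0.16.

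The 3 mitotic kinases outside the checkpoint and passenger complex were AURKA and PLK1, which act in centrosome maturation and spindle assembly, and NEK2, a centrosome kinase. None passed the test with DZNep. Their changes were -0.19, -0.18 and -0.20, with limma adjusted p of 0.175, 0.107 and 0.0835, and the libraries of the groups overlapped in each.

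Chromosome structure gave changes of both directions. TOP2A, topoisomerase II alpha, untangles sister chromatids, and MKI67 encodes Ki-67, the proliferation marker that coats mitotic chromosomes. TOP2A had 78.2, 76.3 and 69.6 RPKM with DMSO and 51.6, 55.3 and 61.6 RPKM with DZNep. Every DZNep library was below every DMSO library, and the mean went from 74.7 ± 4.53 to 56.2 ± 5.07 RPKM (SD, n = 3 libraries each), a change of -0.41 (SE 0.0756, limma adjusted p = 0.00768). MKI67 had 53.0, 53.4 and 51.6 RPKM with DMSO and 57.6, 58.7 and 62.6 RPKM with DZNep. Here the order was the opposite, with all DZNep libraries above all DMSO libraries, and the mean rose by 13.2% (limma adjusted p = 0.0334). The call for MKI67 was lost without DZNep 2, DZNep 3, DMSO 2 or DMSO 3 (limma adjusted p = 0.0907, 0.0709, 0.0995 and 0.0905), and after a shift to equal medians (0.0543). CDCA2, which brings a phosphatase to chromosomes at mitotic exit, fell by 0.28 (limma adjusted p = 0.0356, but 0.0906, 0.102, 0.0625 and 0.0823 without DZNep 1, DZNep 2, DMSO 1 and DMSO 2). CDCA3, which promotes the destruction of the kinase WEE1, changed by -0.03 (limma adjusted p = 0.855).

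A ratio of genes taken within a library does not depend on its scaling. The pair TOP2A and MKI67 was picked after its values were seen, so no test is given. TOP2A was 1.48, 1.43 and 1.35 times MKI67 in the DMSO libraries and 0.896, 0.943 and 0.985 times in the DZNep libraries. In the genetic experiment the ratio was 1.40 and 1.59 with EtOH and 1.55 and 1.55 with Tamoxifen. TOP2A thus exceeded MKI67 in all libraries but those given DZNep. The kinetochore pair CENPE and CENPF, picked in the same way, had a ratio of 1.45, 1.35 and 1.35 with DMSO and 0.996, 0.959 and 0.910 with DZNep.

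At the kinetochore, CENPE was lower with DZNep and the other 4 genes did not pass the test. CENPE, a kinesin that carries chromosomes to the spindle equator, had 12.6, 12.2 and 11.6 RPKM with DMSO and 8.59, 8.85 and 9.72 RPKM with DZNep. The highest DZNep library was well below the lowest DMSO library, and the mean fell by 25.4% (limma adjusted p = 0.00333). CENPF, a large kinetochore protein, went the other way without passing the test: 8.68, 9.03 and 8.55 RPKM with DMSO and 8.63, 9.22 and 10.7 RPKM with DZNep (change 0.10, limma adjusted p = 0.321). DZNep 2 and DZNep 3 lay above all DMSO libraries, and DZNep 1 lay among them. NDC80 and NUF2, subunits of the complex that binds microtubules, changed by -0.27 and -0.16, and CENPA, the centromeric histone H3 variant, by -0.17, with limma adjusted p of 0.131, 0.183 and 0.143. NDC80 ran from 8.59 RPKM in DZNep 1 to 14.6 RPKM in DMSO 1.

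Of the 3 spindle checkpoint kinases, BUB1 was lower (-0.31, limma adjusted p = 0.0184, but 0.0664 without DZNep 2 and 0.0667 without DMSO 2). BUB1B changed by -0.17 and TTK, the kinase MPS1, by -0.18, and neither passed the test (limma adjusted p = 0.141 and 0.0960). TTK was the gene whose libraries separated without a call.

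The chromosomal passenger complex corrects faulty attachments and later guides cytokinesis. It joins the kinase AURKB to INCENP, BIRC5 (survivin) and CDCA8 (borealin). CDCA8 had 28.5, 24.9 and 21.4 RPKM with DMSO and 18.6, 17.7 and 20.0 RPKM with DZNep. Its DMSO libraries were widely spread but all lay above the DZNep libraries, and the change was -0.38 (SE 0.0978, limma adjusted p = 0.0237, with 0.0519, 0.0831 and 0.0752 without DZNep 1, DZNep 2 and DMSO 2). AURKB was just past the threshold (-0.16, limma adjusted p = 0.0493), and leaving out any library other than DMSO 3 lost its call, with adjusted p up to 0.168 without DMSO 2. INCENP and BIRC5 changed by -0.10 and -0.21 (limma adjusted p = 0.236 and 0.137).

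Spindle motors and spindle proteins, 9 genes, gave 2 lower calls, TACC3 and KIF2C. TACC3, which holds parallel microtubules of the spindle together, had 37.3, 36.2 and 33.2 RPKM with DMSO and 27.2, 28.6 and 28.9 RPKM with DZNep. These groups were clearly apart, and the mean fell by 20.7% (limma adjusted p = 0.00605). KIF2C, a kinesin that shortens microtubules at the centromere, had 16.1, 14.6 and 14.5 RPKM with DMSO and 11.98, 12.7 and 13.6 RPKM with DZNep. It too was separated, with a change of -0.23 (SE 0.0637, limma adjusted p = 0.0336). That call was lost without DZNep 1, DZNep 2, DMSO 1, DMSO 2 or DMSO 3 (0.0889, 0.101, 0.0686, 0.0789 and 0.0515). Changes of the other 7, the motors KIF4 and KIF11 and the spindle proteins TPX2, HMMR, DLGAP5, NUSAP1 and CKAP2, ran from -0.21 for KIF4 to 0.11 for CKAP2. NUSAP1, which bundles microtubules, was at 24.5, 22.7 and 20.6 RPKM with DMSO and at 20.3, 22.4 and 24.6 RPKM with DZNep, so the groups covered nearly the same range.

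Both partners of the anaphase-promoting complex were lower. UBE2C, the ubiquitin-conjugating enzyme that works with the complex, had the highest level of the 40 genes: 215, 199 and 183 RPKM with DMSO and 155, 168 and 158 RPKM with DZNep. No DZNep library reached the DMSO range, and the change was -0.31 (SE 0.0689, limma adjusted p = 0.0148, but 0.0597 without DMSO 2). CDC20, the activator of the complex in early mitosis, had 58.6, 51.4 and 49.2 RPKM with DMSO and 43.9, 44.1 and 43.8 RPKM with DZNep. The DZNep libraries were nearly equal and all below DMSO, with a change of -0.26 (SE 0.0670, limma adjusted p = 0.0241). Leaving out DZNep 1, DZNep 2, DZNep 3 or DMSO 2 ended the call of CDC20 (0.0530, 0.0746, 0.0609 and 0.0629).

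Among the cytokinesis genes, 3 of 5 were lower with DZNep. KIF23, a motor of the central spindle, had 37.2, 35.2 and 33.7 RPKM with DMSO and 27.2, 28.7 and 30.6 RPKM with DZNep. The groups did not overlap and the mean fell by 18.5% (log2 change -0.29, SE 0.0605, limma adjusted p = 0.0121). ANLN, anillin, a scaffold of the contractile ring, had 31.6, 30.9 and 29.8 RPKM with DMSO and 22.1, 22.2 and 26.7 RPKM with DZNep. DZNep 3 was the nearest to the DMSO libraries but still below them, and the change was -0.37 (SE 0.0761, limma adjusted p = 0.0107). PRC1, which bundles the microtubules of the midzone, was lower by a smaller amount (-0.22, limma adjusted p = 0.0435), and its call was lost without DZNep 1, DZNep 2, DMSO 1 or DMSO 2 (0.111, 0.119, 0.0889 and 0.147). KIF20A and ECT2, which act in furrow formation, changed by -0.11 and -0.02 (limma adjusted p = 0.279 and 0.843).

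Of the 16 called genes, 5, ANLN, CDC25C, CENPE, TACC3 and TOP2A, passed the test in each of the 13 alternative settings, and CCNA2 and KIF23 also passed in each of the 6 fits that left out a library. Without the expression filter 10 genes were lower, and the calls of AURKB, CDCA2, CDCA8, KIF2C and PRC1 were lost (limma adjusted p from 0.0566 to 0.0769). AURKB also missed the threshold with a pseudocount of 0.1 and with no trend (0.0504 and 0.0586). By promoter, 8 of the 11 lower genes with a window held a CHR near the start, as did 14 of the 21 other genes. A CCAAT match was present in 8 of those 11 and 17 of those 21.

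**Figure D4:**
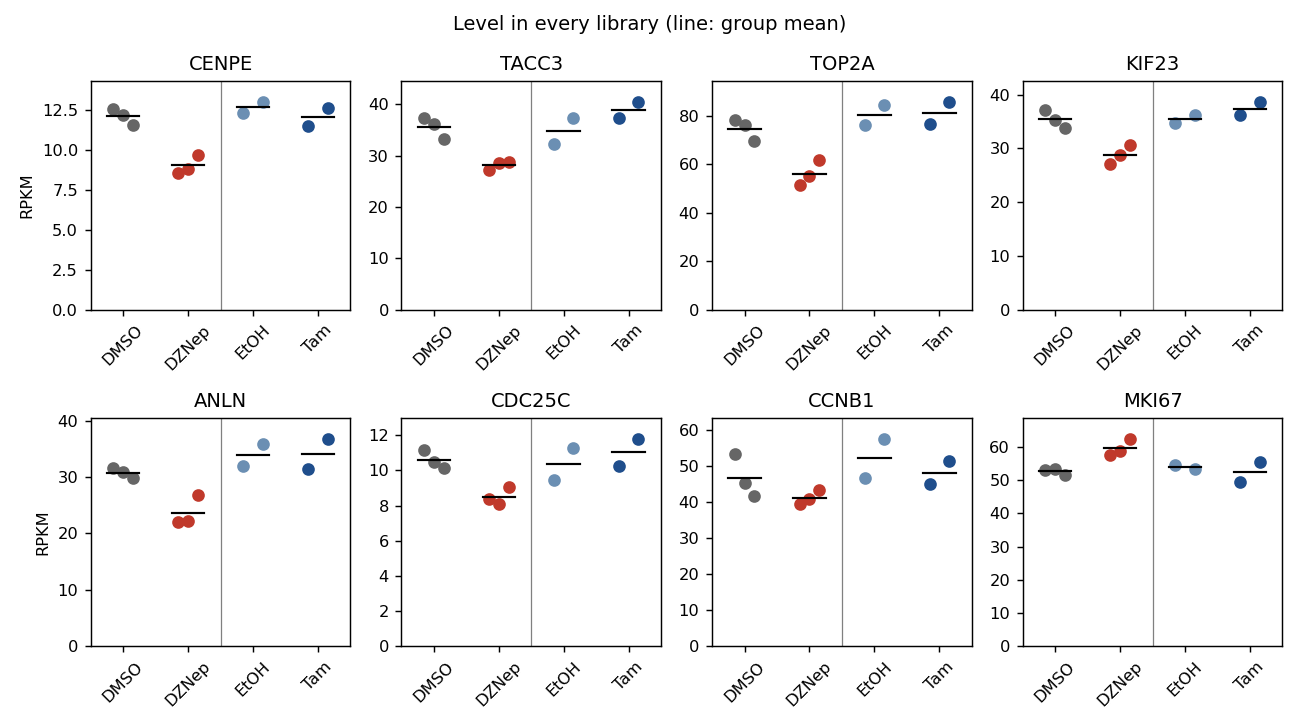
RPKM of 8 of the genes in every library (points) with group means (lines), the chemical experiment to the left of the grey line and the genetic to the right. DZNep libraries lie below DMSO libraries for CENPE, TACC3, TOP2A, KIF23, ANLN and CDC25C, overlap them for CCNB1 and lie above them for MKI67.

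The targeted gene was read once in each experiment. EZH2 had 30.4, 29.8 and 27.1 RPKM with DMSO and 22.5, 24.2 and 24.8 RPKM with DZNep, groups that did not overlap (exact two-sided permutation p = 0.1, the smallest possible). In the genetic experiment EZH2 had 27.9 and 34.0 RPKM with EtOH and 32.01 and 33.2 RPKM with Tamoxifen, groups that overlapped (exact two-sided permutation p = 1, where 0.333 is the smallest possible). A level over the whole gene does not show whether the floxed part was excised, and the labels do not give the deleted exons. Directions below are therefore those of the libraries labelled Tamoxifen.

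In the libraries labelled Tamoxifen, none of the 40 genes passed the test (limma, adjusted p from 0.119 to 0.986, with 2 genes lower and 0 higher at an unadjusted p under 0.05), where 2.07% of 11123 genes did. The median change was -0.01, against 0.04 over all genes tested, but it was positive without Tamoxifen 1 (0.08) or EtOH 2 (0.05) and -0.07 and -0.11 without EtOH 1 and Tamoxifen 2. In the fit of all 4 libraries 21 changes were negative and 19 positive. Both Tamoxifen libraries were below both EtOH libraries in 5 genes and above them in 2, while these separations held for 23.2% and 36.6% of all genes tested. The 5 were CCNA2, CCNB2, TPX2, NUSAP1 and HMMR, and the 2 were KIF2C and CDCA2. CCNA2 had 60.3 and 64.8 RPKM with EtOH and 49.5 and 56.4 RPKM with Tamoxifen, the most negative change (-0.24, SE 0.0822, limma adjusted p = 0.161). NUSAP1 had 22.7 and 23.2 RPKM with EtOH and 18.6 and 20.3 RPKM with Tamoxifen, the smallest p of the 40 (change -0.23, SE 0.0630, limma adjusted p = 0.119). Neither gene's libraries overlapped. CCNB2 had 48.3 and 50.1 RPKM with EtOH and 41.7 and 46.6 RPKM with Tamoxifen (change -0.15, limma adjusted p = 0.246). HMMR, a spindle protein, had 15.7 and 16.6 RPKM with EtOH and 14.3 and 15.3 RPKM with Tamoxifen (change -0.12, limma adjusted p = 0.270).

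Among the positive changes, CENPA had the largest: 33.5 and 44.3 RPKM with EtOH and 42.3 and 47.3 RPKM with Tamoxifen (change 0.21, SE 0.140, limma adjusted p = 0.373). EtOH 1 stood apart from the other libraries of that gene, and the groups overlapped. CDK1 had 40.2 and 45.5 RPKM with EtOH and 45.1 and 51.0 RPKM with Tamoxifen (change 0.16, limma adjusted p = 0.308). CDCA2 had 12.7 and 14.0 RPKM with EtOH and 14.3 and 16.2 RPKM with Tamoxifen, a separated pair of groups (change 0.17, limma adjusted p = 0.2496). TACC3 had 32.3 and 37.3 RPKM with EtOH and 37.2 and 40.5 RPKM with Tamoxifen, overlapping narrowly (change 0.16, limma adjusted p = 0.310). CENPE had 12.4 and 13.0 RPKM with EtOH and 11.5 and 12.7 RPKM with Tamoxifen (change -0.07, limma adjusted p = 0.544). MKI67 had 54.5 and 53.3 RPKM with EtOH and 49.5 and 55.5 RPKM with Tamoxifen, with the EtOH values between the Tamoxifen values (change -0.04, limma adjusted p = 0.745). TOP2A, the gene that fell most with DZNep, had 76.2 and 84.6 RPKM with EtOH and 76.9 and 85.9 RPKM with Tamoxifen, nearly the same pair of values (change 0.02, SE 0.0844).

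**Figure D5:**
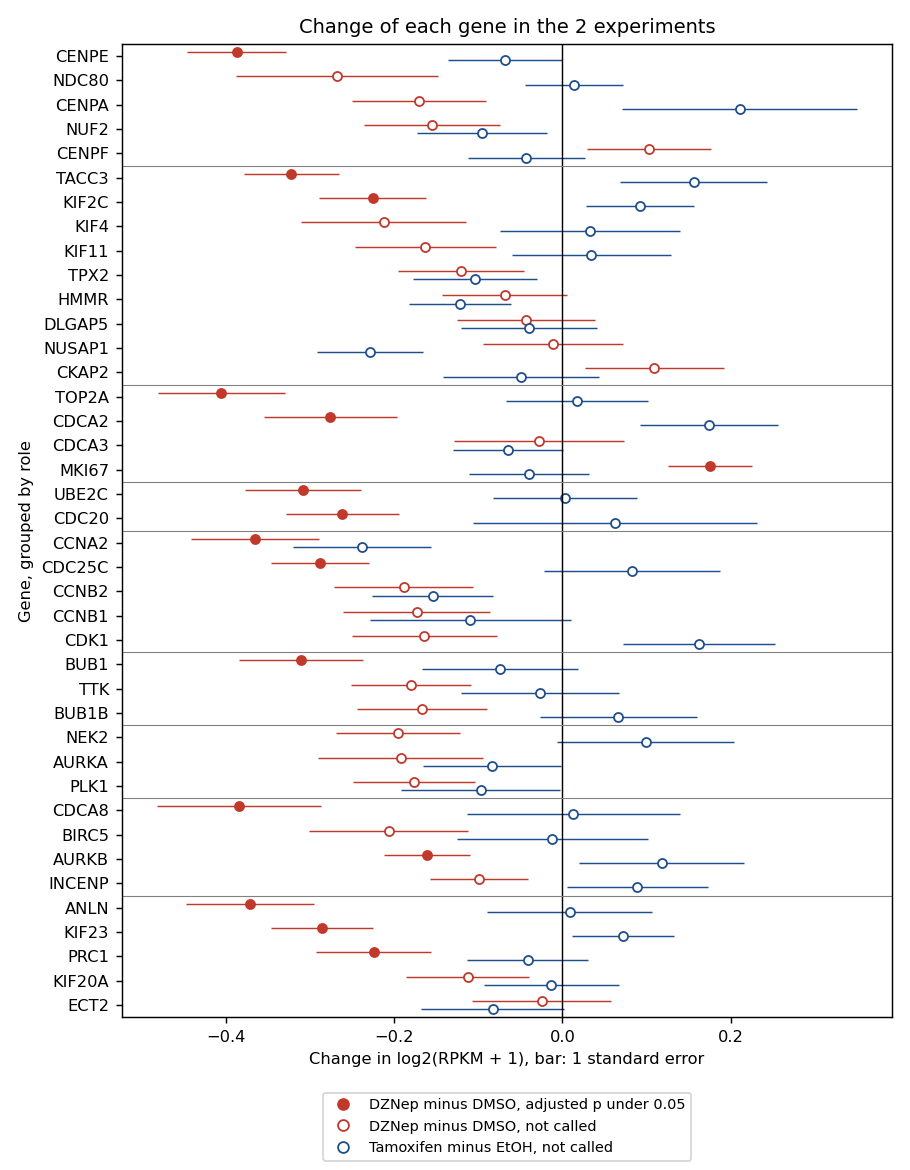
Change of each gene in log2(RPKM + 1) with 1 standard error, DZNep minus DMSO in red (filled where the adjusted p is under 0.05) and Tamoxifen minus EtOH in blue. Of the red points 37 lie left of 0, and the blue points lie on both sides, 21 left and 19 right.

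The difference between the experiments was tested directly, as the DZNep change less the Tamoxifen change. It passed the test for 6 genes, all in the direction of a lower DZNep change, and 9.2% of 10994 genes did so in that direction and 10.7% in the other. All 6 were among those lower with DZNep. The values were -0.48 for TACC3 (SE 0.104, limma adjusted p = 0.0115), -0.45 for CDCA2 (SE 0.127, 0.0325), -0.42 for TOP2A (SE 0.122, 0.0363), -0.36 for KIF23 (SE 0.0908, 0.0220), -0.32 for CENPE (SE 0.0938, 0.0380) and -0.32 for KIF2C (SE 0.0976, 0.0445). KIF23 had 34.7 and 36.3 RPKM with EtOH and 36.1 and 38.6 RPKM with Tamoxifen, and KIF2C had 15.2 and 16.0 RPKM with EtOH and 16.0 and 17.4 RPKM with Tamoxifen. CDC25C and ANLN were close to the threshold (-0.37 and -0.38, limma adjusted p = 0.0511 and 0.0683). For CDC25C the EtOH libraries gave 9.47 and 11.3 RPKM and those with Tamoxifen 10.2 and 11.8 RPKM, and for ANLN these were 31.9 and 35.9 RPKM and 31.5 and 36.8 RPKM. MKI67 and NUSAP1 had positive differences of 0.22 each that did not pass (limma adjusted p = 0.0975 and 0.230). The count of 6 rested on several libraries: it was 2 without DZNep 1, DZNep 2 or DMSO 2, 3 without DMSO 1, 1 without EtOH 1 and 0 without Tamoxifen 2. Without the expression filter it was 2, since CDCA2, TOP2A, CENPE and KIF2C did not pass (limma adjusted p = 0.0601, 0.0613, 0.0582 and 0.0660).

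Other genes of mitosis, 138 tested in 5 related lists, gave 31 lower and 7 higher with DZNep, a median of -0.13, and 0 calls with Tamoxifen (limma, with 15 lower and 9 higher at an unadjusted p under 0.05). By list, 8 of 37 other kinetochore and centromere genes were lower and 1 higher, 3 and 2 of 22 checkpoint and anaphase-promoting complex genes, 2 and 1 of 17 condensin and cohesin genes, 8 and 1 of 34 other spindle and cytokinesis genes, and 10 and 2 of 28 genes of mitotic entry and its transcription factors. The DZNep calls of the lists are read against the same shares of all genes at the adjusted threshold, 11.1% lower and 16.6% higher.

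Transcription factors of the mitotic programme had the most negative changes in these lists. FOXM1, which activates mitotic genes, had 15.1, 15.8 and 14.6 RPKM with DMSO and 11.3, 10.8 and 10.1 RPKM with DZNep. The lowest FOXM1 value was that of DZNep 3, the DZNep library in which most of the 40 genes were highest. Its change was -0.46 (SE 0.0558, limma adjusted p = 0.00126). MYBL2, the MuvB partner B-MYB, had 15.8, 15.6 and 14.1 RPKM with DMSO and 10.5, 10.8 and 10.6 RPKM with DZNep, again without overlap (change -0.47, SE 0.0543, limma adjusted p = 0.00101). E2F1, an activator of S phase genes, and E2F8, a repressor of the E2F family, changed by -0.42 and -0.44 (limma adjusted p = 0.00321 and 8.46e-04). These 4 genes passed the test in each of the 13 alternative settings. E2F4, a subunit of the repressor complex DREAM, fell by 0.21 (limma adjusted p = 0.0279), and its call was lost without DZNep 2, DZNep 3, DMSO 1 or DMSO 2 (0.0842, 0.0591, 0.0522 and 0.104). LIN9, a MuvB subunit, had 7.12, 6.84 and 6.76 RPKM with DMSO and 5.36, 5.72 and 6.74 RPKM with DZNep and did not pass (change -0.19, limma adjusted p = 0.0937). It passed without DZNep 3 (0.0191).

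In the libraries labelled Tamoxifen, FOXM1 had 14.1 and 15.4 RPKM with EtOH and 13.9 and 17.4 RPKM with Tamoxifen, and MYBL2 had 14.4 and 15.0 RPKM with EtOH and 14.4 and 17.1 RPKM with Tamoxifen. The groups overlapped for both, and the changes of FOXM1, MYBL2, LIN9 and E2F4 were 0.07, 0.09, 0.03 and 0.05 (limma adjusted p = 0.722, 0.532, 0.855 and 0.683). Each of those 4 was negative without Tamoxifen 2 (-0.08, -0.02, -0.06 and -0.03), and LIN9 also after quantile normalization and after the shift to equal medians (-0.02 and -0.01). Over the 138 genes of the related lists the difference between experiments passed for 16 downward and 5 upward, against 9.2% and 10.7% of all genes tested. It was -0.56 for MYBL2, -0.52 for PKMYT1, the kinase that holds CDK1 inactive, -0.54 for E2F1 and -0.62 for HAUS4, a subunit of the augmin complex of the spindle (limma adjusted p = 0.00571, 0.00751, 0.00793 and 0.00953). For FOXM1 it was -0.53 (limma adjusted p = 0.0151, but 0.0603 without EtOH 1 and 0.0594 without Tamoxifen 2). CDKN1A, the CDK inhibitor p21, was named after its values were seen: it rose by 0.31 with DZNep (limma adjusted p = 0.0164, 0.0666 without DZNep 2). PSRC1, a spindle gene of the related lists, also rose by 0.31 (limma adjusted p = 0.00930). Those lists held 7 higher and 31 lower genes with DZNep, and 16.6% of all genes tested were higher.

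A list of 40 S phase genes, which act in DNA replication before mitosis, served as a comparison. With DZNep 6 were lower and 0 higher, against 11.1% lower and 16.6% higher over all genes tested at the same adjusted threshold. Counts at an unadjusted p under 0.05 were 14 and 0, without a share of all genes. The median of the S phase list was -0.11, a smaller shift than in the mitotic genes, but the difference of the medians was not tested. With Tamoxifen no S phase gene passed the test (limma, 1 lower and 4 higher at an unadjusted p under 0.05). The change was positive in 39 of 40, with a median of 0.15, where the mitotic genes were split 19 to 21. Over all genes tested, 6662 of 11123 changes were positive. The mean log2 level of the S phase list was 4.39 and 4.52 with EtOH and 4.51 and 4.70 with Tamoxifen. Tamoxifen 1 thus lay below EtOH 2, and the groups overlapped on this summary. The difference between experiments was negative in all 40 S phase genes, as in 5686 of the 10994 genes tested. It passed for 7 of the 40, and 9.2% of all genes tested passed in that direction.

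The organoids carried the markers of prostate epithelium in every library, with all 9 (among them KRT5, KRT8 and HOXB13) above 1 RPKM. Their summed level was 3684 to 3835 RPKM with DMSO, 5074 to 5199 with DZNep, 3881 to 3903 with EtOH and 3272 to 3349 with Tamoxifen, so it was highest in the DZNep libraries. The largest terms of this sum were KRT5, at 1688.5 to 2758.2 RPKM over all libraries, and KRT14, at 600 to 1463 RPKM. No other marker of the list exceeded 298 RPKM, so the sum does not show a rise of each marker. Of 12 fibroblast and smooth muscle markers, 1 or 2 reached 1 RPKM, and the sum was 3.61 to 4.75 RPKM with DMSO, 8.90 to 9.94 with DZNep, 3.84 to 4.33 with EtOH and 3.04 to 4.63 with Tamoxifen. This sum was mostly DCN, at 2.39 to 6.92 RPKM over all libraries, and ACTA2, at 0.244 to 2.83 RPKM. The other markers of the list did not exceed 0.430 RPKM in any library. The defining collagen COL3A1 and DES were at 0 in every library, and COL1A2 did not exceed 0.00973 RPKM. Of 10 immune markers, 1 or 2 reached 1 RPKM, mainly CD68, while PTPRC stayed at or below 0.00494 RPKM (sums 14.5 to 18.6 with DMSO, 17.5 to 19.1 with DZNep, 12.4 to 15.6 with EtOH and 13.9 to 16.1 with Tamoxifen). Of 7 endothelial markers, EGFL7 alone reached 1 RPKM, with CDH5 at 0 (sums 2.46 to 3.11, 2.34 to 2.87, 2.20 to 2.99 and 2.29 to 2.71 in the same order). What part the shifts of the epithelial and fibroblast sums had in the lower mitotic levels was not tested.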

How the data were processed

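RNA was extracted with TRIzol and made into Illumina TruSeq stranded mRNA libraries from 500 ng, per the labels' protocols. Software named was bcl2fastq 2.18, STAR and Cufflinks with build mm9, per the submitters' processing notes, and how strand and multiply aligned reads were handled was not given in the sources used here, which leaves near-identical gene copies uncertain. The authors deposited log2 RPKM values, 1 table per experiment, with a floor of 0, read here as log2(RPKM + 1), and RPKM was recovered from them. The genetic table had 2 rows without values and 27 symbols turned into dates, which were left out. Read counts could not be recovered (a shared step between libraries held for 19.5% to 23.6% of weakly expressed genes), so depth is unknown and count models were not applied. The limma 3.58.1 package (R 4.3.3) gave a moderated two-sided test with mean trend on log2(RPKM + 1) for every gene averaging 1 RPKM or more in its table. Experiments were fitted separately (residual degrees of freedom 4 and 2), and their difference in 1 fit of 10 libraries. P-values were Benjamini-Hochberg adjusted over all genes, with a threshold of 0.05. The procedure was tested on simulated data with noise drawn independently for each gene. That simulation lacks the spread that the 40 genes shared between libraries of a group. Alternative settings changed the pseudocount to 0.1, dropped the expression filter or raised it to 5 RPKM, normalized by quantiles or by a shift to equal medians, dropped the trend, added a replicate block, or left out each library. The 40 genes and the lists were chosen with earlier results of these data known. Genes given in full were, per comparison, the 8 of smallest p, the largest change in each direction, and MKI67, CENPE and TACC3, and of the related lists up to 4 of smallest p past the threshold, and FOXM1, MYBL2, LIN9 and E2F4. Others are given as values or counts. Of the epithelial marker list, 1 gene is not reported here and was left out of the sums.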

Additional observations from a re-analysis of the deposited data

Results flagged for a closer look

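Each of these 6 genes changed differently in the 2 experiments by a limma test of the DZNep change less the Tamoxifen change on the log2(RPKM + 1) scale. The difference was -0.48 for TACC3, -0.45 for CDCA2, -0.42 for TOP2A, -0.36 for KIF23, -0.32 for CENPE and -0.32 for KIF2C. Leaving out Tamoxifen 2 ended the call in all 6, with adjusted p from 0.0602 for TACC3 to 0.174 for KIF2C, and leaving out EtOH 1 ended all but that of TACC3. The genetic experiment has 2 libraries a group, and the experiments also differ in solvent and agent.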

How the results depend on the processing

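The median change of the 40 genes with DZNep was negative in every alternative, from -0.25 to -0.12 over libraries left out. With Tamoxifen the median had no stable sign, from -0.11 without Tamoxifen 2 to 0.08 without Tamoxifen 1, and 0.05 without EtOH 2. In that experiment 0 of the 40 passed the test in any alternative. With DZNep the count of lower genes was 15, and 7 to 16 when a library was left out. The count of higher genes was 1, with 0 after the shift to equal medians and 0 to 1 over libraries left out. Over all genes 3088 were called with DZNep (1522 to 3359 over libraries left out) and 230 with Tamoxifen (1 without the filter, 412 after the shift to equal medians, 37 to 977 over libraries left out, where a group left with 1 library is assumed to vary like the other). The difference between experiments passed for 6 genes, 2 without the filter, 10 after quantile normalization and 0 to 8 over libraries left out. Fewer genes share the adjustment with a filter. What made the counts differ between settings was not tested.

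A fit with the replicate block gave 5 lower and 0 higher genes and 1610 calls over all genes with DZNep, 878 calls with Tamoxifen, and 1 gene whose change differed between experiments. The labels do not say whether equal numbers mark shared samples, and correlations of deviations from the group mean cannot settle it. For same-numbered libraries these were 0.0591, 0.0591 and -0.0675 in the chemical experiment, where not every library correlated best with its own number. In the genetic experiment the value was 0.0400, but with 2 libraries a group the deviations mirror each other.

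The sign turned in at least 1 alternative for 4 of the 40 genes with DZNep (CDCA3, DLGAP5, ECT2 and NUSAP1), 24 with Tamoxifen and 9 in the difference between experiments, none of which passed the test in any alternative. Of the genes given in full with Tamoxifen, LIN9 became -0.021 after quantile normalization and -0.0064 after the shift to equal medians. Over libraries left out LIN9 ran from -0.062 to 0.11, FOXM1 from -0.084 to 0.22, MYBL2 from -0.024 to 0.21, E2F4 from -0.028 to 0.13 and MKI67 from -0.12 to 0.040.

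Depth is unknown, so no limit from read counts can be given. With 2 libraries a group the genetic experiment has little power, and a gene that did not pass there is not shown to be unchanged. Changes are on the log2(RPKM + 1) scale, which slightly understates those of weak genes, and the lowest level among the 40 was 7.89 RPKM.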
